A study of Mus musculus with 16 samples.

Results

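The genes described here are 37 mouse genes of the unfolded protein response and the integrated stress response, followed in livers that carried a control or a FAT10 adenovirus, with or without pemafibrate. They were taken by symbol from a list of genes of these pathways, which comprises 15 chaperones and folding enzymes of the endoplasmic reticulum (ER), 7 genes of ER-associated degradation (ERAD), 4 stress sensors and transducers, and 11 genes of the ATF4 arm. All 37 were found by Ensembl identifier among the 55416 genes counted, and all 37 were among the 14770 genes with enough counts to be tested.

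RNA was sequenced from the livers of 16 C57BL/6J mice, 4 in each of 4 groups, all 8 weeks old, with no engineered allele named in the labels. Every mouse received adenovirus through the tail vein, so the controls carry the vector as well. The Ad-CTRL groups received the control adenovirus and the Ad-FAT10 groups an adenovirus that expresses FAT10, a ubiquitin-like modifier encoded by Ubd that marks proteins for the proteasome. On day 4 each mouse was gavaged with the vehicle CMC (Ad-CTRL CMC and Ad-FAT10 CMC) or with pemafibrate at 1 mpk (Ad-CTRL Pema and Ad-FAT10 Pema), 18 h and 5 h before the liver was taken, and all mice were fasted for 5 h. Pemafibrate activates PPARα, a nuclear receptor that switches on fatty acid oxidation genes in hepatocytes. No source used here names the vector's promoter or the infected cell types, and the response to an adenovirus that carries a transgene and the response to FAT10 cannot be told apart in this design.

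The ER folds secreted and membrane proteins, and a hepatocyte secretes most plasma proteins, so this machinery is abundant in liver. When unfolded proteins build up, 3 sensors respond: IRE1α (Ern1), which splices Xbp1 mRNA, ATF6, which is cleaved to a transcription factor, and PERK (Eif2ak3), which phosphorylates the translation factor eIF2α. ATF6 and spliced XBP1 act on chaperone and ERAD genes, whereas eIF2α phosphorylation, by PERK or by kinases that sense amino acid shortage, viral RNA or haem, favours translation of ATF4, which acts on amino acid synthesis, redox and stress genes. Gene counts report none of the splicing, cleavage, phosphorylation or translation steps, so every value here is an mRNA level.

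The DNA in front of these genes is shown because the chaperone arm and the ATF4 arm are known for different short elements, which the comparison of the arms refers back to. RefSeq windows of 300 bases (250 before to 50 after a start site, build GRCm38.p6) were given for 32 of the 37 genes. Hspa13, Hyou1, Manf, Derl1 and Atf6 had none. Both strands were searched for the ER stress element (ERSE: CCAAT, 9 bases of any kind, CCACG), ERSE-II (ATTGG, 1 base of any kind, CCACG), the core of the UPR element (TGACG followed by TGG), the C/EBP-ATF response element (TGATG, 1 base of any kind, AA) and the cyclic AMP response element, CRE (TGACG followed by TCA). ERSE and ERSE-II share CCACG, and the UPR element core and the CRE share their first 6 letters. An ERSE was found for 7 of the 12 chaperone genes with a window and for 2 of 6 ERAD genes, but for no sensor and no ATF4-arm gene, against 37 of 27025 genes (0.137%) in the whole table. Each run below is 30 bases, 5′ to 3′ on the strand named, with the element in capitals. A match is a description of these letters and does not show that a factor binds there. The elements were searched because they are known for these arms, so these counts and those below are no test.
Hspa5, ERSE, + strand, chr2:34772020-34772049, 47 to 65 bases before the start: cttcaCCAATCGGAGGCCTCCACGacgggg
Hsp90b1, ERSE, + strand, chr10:86705527-86705556, 89 to 107 bases before the start: aactcaCCAATCGTGCCTCACCACGcactc
Dnajc3, ERSE, + strand, chr14:118937822-118937851, 87 to 105 bases before the start: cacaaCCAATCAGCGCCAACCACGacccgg
Creld2, ERSE, - strand, chr15:88819515-88819544, 108 to 126 bases before the start: tgtggaCCAATTGAGGCTCGCCACGagaag
Pdia6, ERSE, + strand, chr12:17266486-17266515, 80 to 98 bases before the start: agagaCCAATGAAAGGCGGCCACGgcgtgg
Calr, ERSE, + strand, chr8:84847069-84847098, 144 to 162 bases before the start: tatgggCCAATGAGGGTCGACCACGcgttg
Syvn1, ERSE, + strand, chr19:6046527-6046556, 26 to 44 bases before the start: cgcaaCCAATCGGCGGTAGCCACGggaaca
Derl3, ERSE, - strand, chr10:75893237-75893266, 138 to 156 bases before the start: ggctagCCAATGGGGAAGTCCCACGgtaga
Hsp90b1 held a further ERSE on the other strand, and Canx held an ERSE. The capitals show that the 9 bases between the ends of the element differ from gene to gene.

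A C/EBP-ATF response element was found for 4 of the 11 ATF4-arm genes (Atf3, Trib3, Chac1 and Asns) and for Herpud1, against 1219 of 27025 genes (4.51%). Herpud1 also held an ERSE-II, which 12 of 27025 genes (0.0444%) held, among them Dnajb11. A CRE was found for Ppp1r15a (2.03% of genes held one), and no window of the 32 genes held the UPR element core (0.714% of genes). The elements of the ATF4 arm and of Herpud1 are printed so that they can be set beside the ERSE runs above.
Atf3, C/EBP-ATF element, + strand, chr1:191183425-191183454, 103 to 110 bases before the start: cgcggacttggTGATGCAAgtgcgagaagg
Trib3, C/EBP-ATF element, + strand, chr2:152344028-152344057, 15 to 22 bases after the start: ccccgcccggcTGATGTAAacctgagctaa
Chac1, C/EBP-ATF element, - strand, chr2:119351038-119351067, 186 to 193 bases before the start: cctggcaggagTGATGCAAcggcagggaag
Asns, C/EBP-ATF element, - strand, chr6:7693214-7693243, 16 to 23 bases before the start: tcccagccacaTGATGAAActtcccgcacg
Herpud1, both elements, + strand, chr8:94386279-94386428, the 150 bases before the start, in which the first run of capitals is the C/EBP-ATF element on the opposite strand and the second is the ERSE-II: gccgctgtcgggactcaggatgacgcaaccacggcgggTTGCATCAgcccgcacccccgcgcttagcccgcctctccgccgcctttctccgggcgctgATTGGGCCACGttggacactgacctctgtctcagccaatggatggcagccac
Psat1, Phgdh, Sesn2, Atf4, Atf5 and Ddit3 had a window without a C/EBP-ATF match, which says only that these letters are not in these bases.

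Libraries held 18663498 to 28898229 counts, so the limit set by a count of 0 (3 counts, counting error only) lay between 0.104 and 0.161 CPM, that is, counts scaled to the library total. Ubd, the gene the adenovirus expresses, ran from 8.64 to 15.2 CPM in Ad-CTRL CMC and from 14.2 to 47.8 CPM in Ad-CTRL Pema libraries. It ran from 110 to 339 CPM in Ad-FAT10 CMC and from 391 to 546 CPM in Ad-FAT10 Pema libraries, so all 16 libraries matched their adenovirus label. All Ad-FAT10 Pema libraries lay above the Ad-FAT10 CMC libraries, so the pemafibrate comparison in Ad-FAT10 livers also sets unequal Ubd levels side by side. The part of this in the changes below was not tested. A count does not separate the mouse gene from a vector transcript. Marker lists of hepatocytes and of other liver cells moved with the groups and are given after the gene results. In whole liver, fewer cells of a type and less RNA per cell cannot be told apart.

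Levels below are CPM after TMM scaling, as the value in each mouse in the order of the replicate number, or as mean ± SD (n = 4 mice). The TMM factors ran from 0.831 to 0.929 in the Ad-CTRL and from 1.06 to 1.19 in the Ad-FAT10 libraries. Small changes between adenoviruses therefore rest on this scaling. Changes are log2 changes ± SE from an edgeR quasi-likelihood fit, and a gene was called when its p, adjusted over all 14770 genes, was under 0.05. Only called genes are said to rise or fall.

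Among the 37 genes, pemafibrate was followed by 2 rises and 7 falls in Ad-CTRL livers, where 16.2% of all genes rose and 14.4% fell. In Ad-FAT10 livers it was followed by 4 rises and 7 falls, beside 12.9% and 12.5% of all genes. Ad-FAT10 livers differed from Ad-CTRL livers by 5 rises and 6 falls under CMC (all genes 22.5% and 20.2%) and by 9 rises and 7 falls under pemafibrate (all genes 21.2% and 20.5%). The share called in either direction was 24.3%, 29.7%, 29.7% and 43.2% of the 37, against 30.6%, 25.4%, 42.6% and 41.7% of all genes, so it lay below that of all genes in 2 comparisons and a little above it in the other 2. Of the 37, 24 were called in at least 1 of these comparisons and 13 in none. The same was not counted over all genes, so these numbers have no background beside them. With pemafibrate, the 4 libraries of one group lay wholly above the other for 4 and wholly below for 10 of the 37 genes in Ad-CTRL livers (all genes 16.1% and 14.6%), and for 4 and 9 in Ad-FAT10 livers (13.1% and 12.3%). With Ad-FAT10 this held for 7 and 5 under CMC (20.3% and 17.8%) and for 7 and 5 under pemafibrate (19.0% and 18.0%). The small counts moved with single livers: the rises with pemafibrate in Ad-CTRL livers numbered 1 without Ad-CTRL Pema replicate 3 or 4 or Ad-FAT10 CMC replicate 2, and 4 without Ad-FAT10 Pema replicate 3. The falls with Ad-FAT10 under CMC numbered 3 without Ad-CTRL CMC replicate 3. Comparisons that share a group share its 4 livers, so their values are set side by side and are not independent.

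**Figure D1:**
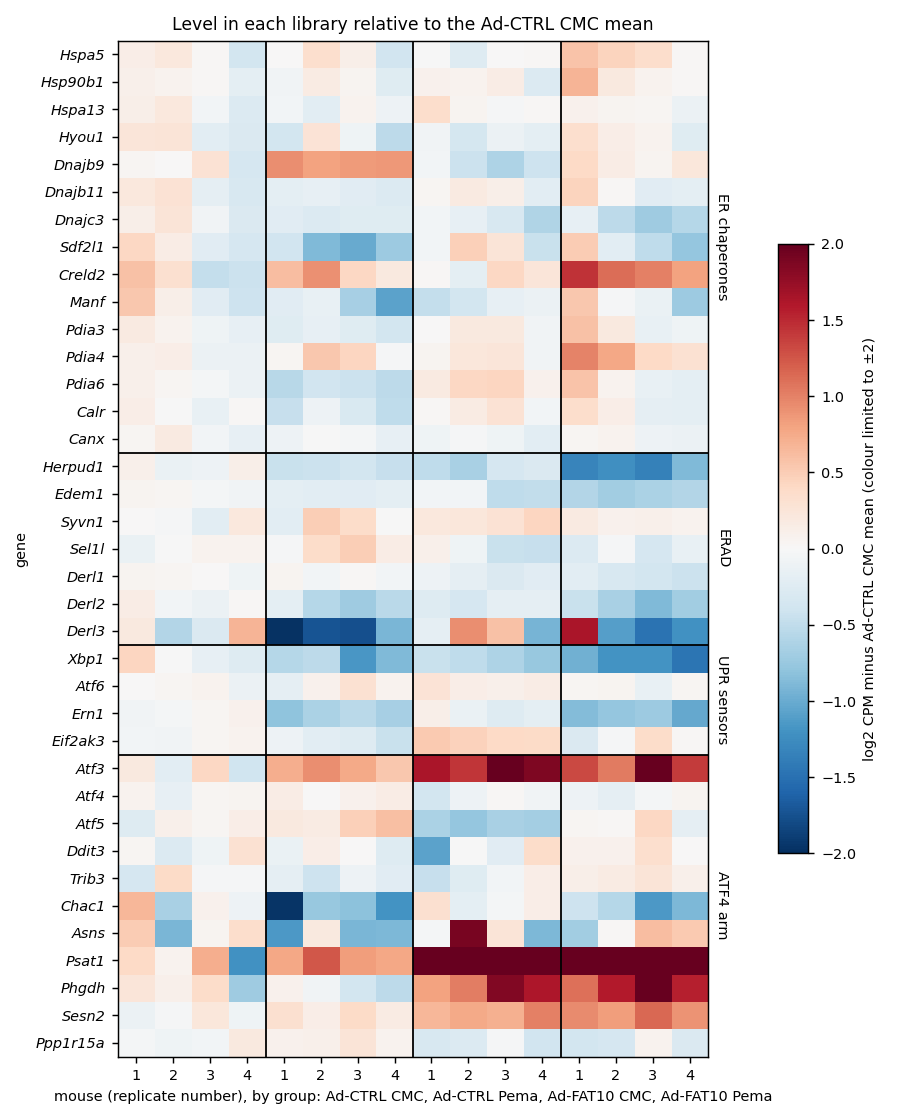
Level of each of the 37 genes (lines, grouped by role) in each of the 16 livers (columns, 4 mice per group), as log2 CPM minus the mean of the Ad-CTRL CMC livers, with red above and blue below that mean and the colour limited to ±2. Psat1, Phgdh and Atf3 are red in all 8 Ad-FAT10 livers, while Xbp1 and Herpud1 are blue there.

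The ER chaperones showed no common direction with pemafibrate. In Ad-CTRL livers 1 of 15 rose and 2 fell, with a median change of -0.16 (all genes -0.01), and in Ad-FAT10 livers 3 rose and none fell, with a median of 0.08. Of all genes, 16.2% rose and 14.4% fell in the first comparison and 12.9% and 12.5% in the second. With Ad-FAT10, none rose and 1 fell under CMC (median 0.02), and 3 rose and 1 fell under pemafibrate (median 0.32, all genes -0.02), beside 22.5% and 20.2% of all genes under CMC and 21.2% and 20.5% under pemafibrate. Dnajb9 had the smallest p of the group in each of the 4 comparisons.

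Hspa5 encodes BiP, the Hsp70 chaperone of the ER lumen that holds the sensors inactive, and its mRNA is the usual marker of ER stress. It was at 576, 603, 533 and 405 CPM in the Ad-CTRL CMC livers and at 525, 658, 569 and 399 CPM in the Ad-CTRL Pema livers. The Ad-FAT10 CMC livers had 522, 436, 524 and 529 CPM and the Ad-FAT10 Pema livers 777, 714, 669 and 529 CPM. The groups overlapped, with 3 of the 4 Ad-FAT10 Pema livers above every other liver. No Hspa5 change was called in the fit reported here. The largest was with pemafibrate in Ad-FAT10 livers, 0.42 ± 0.16 (adjusted p = 0.0576), against 0.02 ± 0.16 in Ad-CTRL livers. The pemafibrate change in Ad-FAT10 livers was called under 8 of 21 alternatives: DESeq2, no filter, only the groups compared, the replicate block, and with any of Ad-CTRL CMC replicate 4, Ad-CTRL Pema replicates 2 and 4 or Ad-FAT10 Pema replicate 4 left out. Without the last of these it was 0.52 (adjusted p = 0.0274). For Ad-FAT10 the changes were -0.07 ± 0.16 under CMC and 0.32 ± 0.16 under pemafibrate.

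Dnajb9 encodes ERdj4, an ER J-protein that brings BiP to IRE1α and to proteins bound for degradation. It stood at 52.6, 51.0, 62.4 and 40.2 CPM with Ad-CTRL CMC and at 97.3, 89.4, 92.5 and 92.7 CPM with Ad-CTRL Pema, where all 4 values lay above every vehicle value. With Ad-FAT10 CMC it was 48.9, 37.7, 33.3 and 38.0 CPM, and with Ad-FAT10 Pema 67.5, 56.7, 53.1 and 59.4 CPM, again without overlap. It rose 1.80-fold with pemafibrate in Ad-CTRL livers (0.85 ± 0.13, adjusted p = 4.85e-05) and also rose in Ad-FAT10 livers (0.58 ± 0.13, adjusted p = 0.00202). It was lower with Ad-FAT10 than with Ad-CTRL, with a change of -0.65 ± 0.12 under pemafibrate (adjusted p = 0.000507) and of -0.39 ± 0.13 under CMC (adjusted p = 0.0195). The CMC call was lost without Ad-CTRL CMC replicate 3 (-0.28, adjusted p = 0.0879) and without Ad-FAT10 CMC replicate 3 (-0.31, adjusted p = 0.0714).

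Creld2, an ER disulfide isomerase-like protein whose promoter holds one of the ERSE runs above, was the other chaperone gene with a large rise. It went from 43.0 ± 7.76 CPM with Ad-FAT10 CMC to 84.1 ± 16.1 CPM with Ad-FAT10 Pema, a change of 0.97 ± 0.22 (adjusted p = 0.00293) with no overlap between livers. In Ad-CTRL livers it was 41.0 ± 15.2 and 57.6 ± 12.5 CPM, a change of 0.49 ± 0.22 that was not called (adjusted p = 0.104). Pdia4, a protein disulfide isomerase, rose with pemafibrate in Ad-FAT10 livers from 167 ± 17.2 to 241 ± 54.2 CPM (0.53 ± 0.15, adjusted p = 0.0156). Without Ad-FAT10 Pema replicate 1 that change was 0.39 (adjusted p = 0.0593).

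In Ad-CTRL livers pemafibrate was followed by falls of Sdf2l1 and Pdia6. Sdf2l1 partners the ER J-protein ERdj3 and went from 34.2 ± 8.27 to 20.2 ± 3.91 CPM (-0.76 ± 0.25, adjusted p = 0.0262). Its call was lost when any of Ad-CTRL CMC replicates 1 and 2 or Ad-CTRL Pema replicates 2, 3 and 4 was left out (adjusted p up to 0.0915). Pdia6, a disulfide isomerase that also binds IRE1α, went from 359 ± 23.7 to 258 ± 14.5 CPM (-0.48 ± 0.14, adjusted p = 0.0147), without overlap.

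Under pemafibrate, Ad-FAT10 livers had more Pdia6, Pdia3 and Calr mRNA than Ad-CTRL livers. Pdia6 was at 386 ± 102 CPM (0.58 ± 0.14, adjusted p = 0.00303). Pdia3, the disulfide isomerase that works with the lectin chaperones on glycoproteins, was at 457 ± 26.5 CPM in Ad-CTRL Pema and 612 ± 149 CPM in Ad-FAT10 Pema livers (0.42 ± 0.14, adjusted p = 0.0214). Calr, the lectin chaperone calreticulin, was at 753 ± 97.4 and 984 ± 185 CPM (0.39 ± 0.13, adjusted p = 0.0283). Without Ad-FAT10 Pema replicate 1 the change was 0.39 for Pdia6, still called, and 0.25 for Pdia3 (adjusted p 0.0928), and the adjusted p for Calr was 0.105. The Pdia3 call was also lost without Ad-CTRL Pema replicate 4 (adjusted p 0.0643), and the Calr call without Ad-CTRL Pema replicates 1 (adjusted p 0.0743) or 4 (0.0922) or Ad-FAT10 Pema replicate 2 (0.0717). Ad-FAT10 Pema replicate 1 had the highest value of the 16 livers for Hspa5, Hsp90b1, Hyou1, Dnajb11, Creld2, Manf, Pdia3, Pdia4, Pdia6, Sdf2l1 and Calr.

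Besides Hspa5, 7 chaperone genes were not called in any comparison: Hsp90b1 (GRP94), Hspa13, Hyou1 (GRP170), Dnajb11 (ERdj3), Dnajc3 (P58IPK, an inhibitor of eIF2α kinases), Manf and Canx (calnexin). Manf, a secreted ER stress factor, had one of the smallest interaction p values of the 37. It was at 56.4, 42.0, 33.1 and 29.2 CPM in Ad-CTRL CMC and 33.4, 34.9, 24.6 and 18.4 CPM in Ad-CTRL Pema livers. In Ad-FAT10 CMC livers it was at 27.9, 29.98, 34.6 and 35.7 CPM and in Ad-FAT10 Pema livers at 56.8, 38.3, 35.3 and 23.6 CPM. All 4 groups overlapped, and the changes with pemafibrate, -0.53 ± 0.24 in Ad-CTRL livers and 0.26 ± 0.24 in Ad-FAT10 livers, were not called. The changes of the 7 genes ran from -0.53 to 0.47, both of Manf, and those of Hspa13 and Canx from -0.10 to 0.09.

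**Figure D2:**
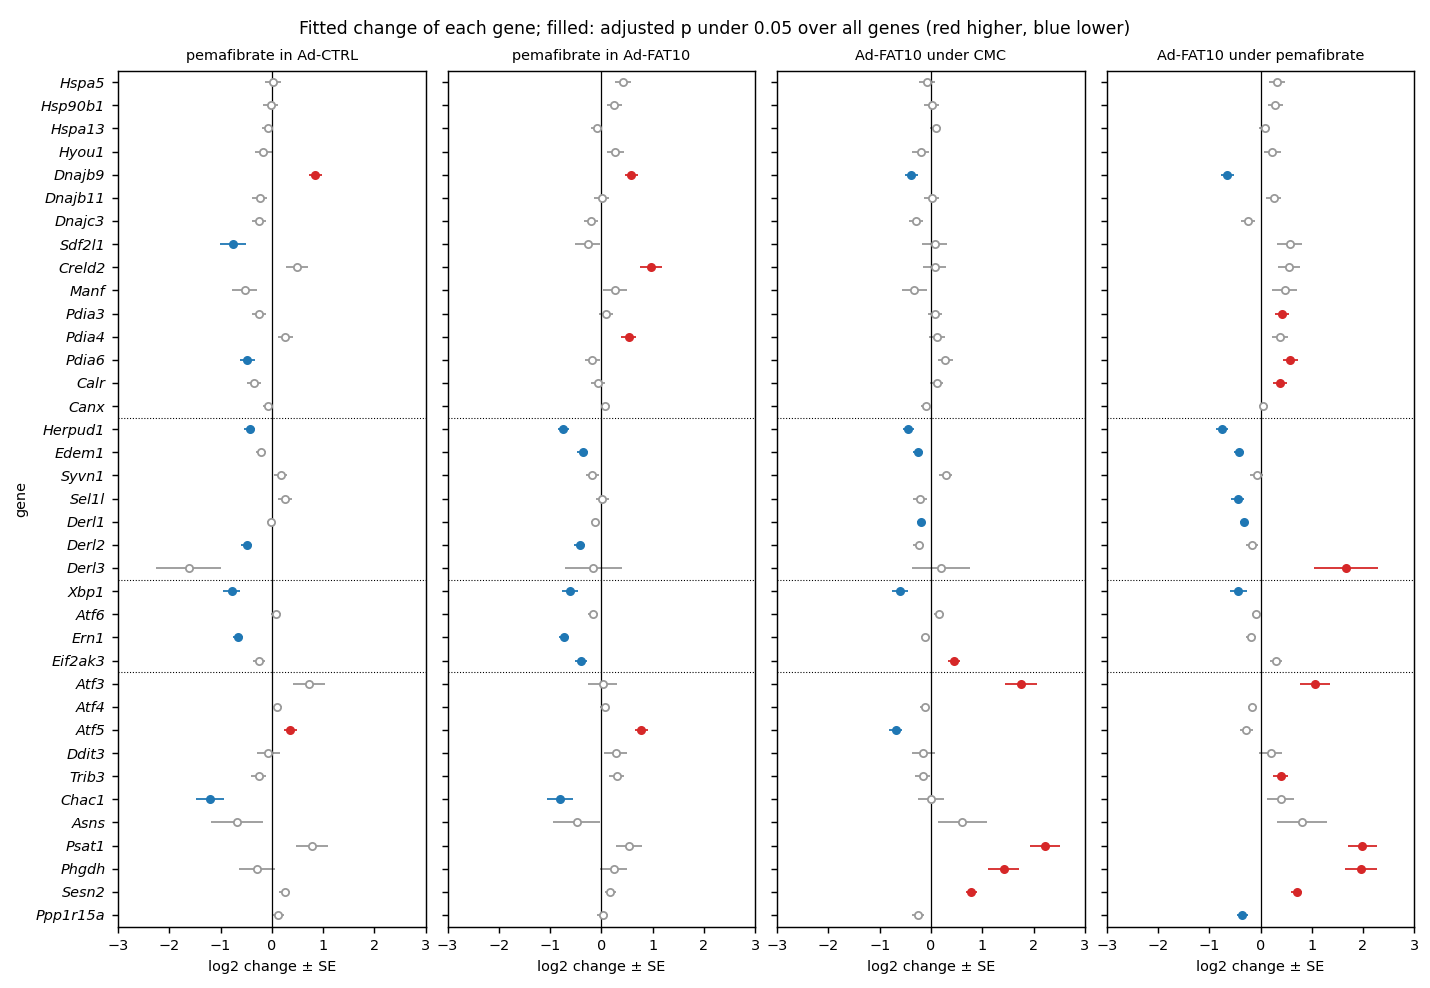
Log2 change ± SE of each of the 37 genes (lines, grouped by role) in the 4 comparisons (panels), with filled points for an edgeR adjusted p under 0.05 over all genes, red for higher and blue for lower, and open points for genes not called. Xbp1 and Herpud1 are filled blue in all 4 panels, and Psat1 and Sesn2 are filled red in both Ad-FAT10 panels.

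The ERAD genes mostly fell where they were called. Pemafibrate was followed by 2 falls of 7 in Ad-CTRL livers (median -0.21) and 3 of 7 in Ad-FAT10 livers (median -0.18), and Ad-FAT10 by 3 falls under CMC (median -0.21) and 4 under pemafibrate (median -0.32). The shares of all genes that fell were 14.4%, 12.5%, 20.2% and 20.5% in that order. Derl3 under pemafibrate was the single rise.

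Herpud1 encodes HERP, an ER membrane protein that organises the HRD1 ubiquitin ligase complex, and its promoter holds both an ERSE-II and a C/EBP-ATF element. It was at 383, 326, 333 and 387 CPM in Ad-CTRL CMC livers and at 261, 263, 276 and 258 CPM in Ad-CTRL Pema livers. It was at 252, 226, 281 and 293 CPM in Ad-FAT10 CMC livers and at 143, 153, 139.6 and 193 CPM in Ad-FAT10 Pema livers. The Ad-CTRL CMC livers were all above the other 12, and the Ad-FAT10 Pema livers all below them. It fell with pemafibrate in Ad-CTRL livers (-0.43 ± 0.11, adjusted p = 0.00642) and in Ad-FAT10 livers (-0.74 ± 0.11, adjusted p = 9.47e-05). It was lower with Ad-FAT10 under CMC (-0.44 ± 0.11, adjusted p = 0.00434) and under pemafibrate (-0.75 ± 0.11, 0.594 times the Ad-CTRL level, adjusted p = 6.49e-05).

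Derl2, a derlin of the channel that moves proteins out of the ER, fell with pemafibrate in both adenoviruses. It went from 128 ± 10.5 to 91.1 ± 14.7 CPM in Ad-CTRL livers (-0.49 ± 0.11, adjusted p = 0.00221) and from 109 ± 5.57 to 81.1 ± 10.0 CPM in Ad-FAT10 livers (-0.42 ± 0.11, adjusted p = 0.0083). Edem1 encodes a protein that trims mannose from misfolded glycoproteins. It fell with pemafibrate in Ad-FAT10 livers (-0.37 ± 0.10, adjusted p = 0.011) and was lower with Ad-FAT10 under pemafibrate (-0.42 ± 0.10, adjusted p = 0.00277) and under CMC (-0.26 ± 0.10, adjusted p = 0.0441). Its group means ran from 169 ± 7.02 CPM in Ad-CTRL CMC to 109.7 ± 3.602 CPM in Ad-FAT10 Pema livers. The pemafibrate call was lost without Ad-FAT10 CMC replicate 2 (-0.28, adjusted p = 0.0631).

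Derl1 was lower with Ad-FAT10 under pemafibrate (-0.32 ± 0.08, adjusted p = 0.00254) and under CMC (-0.20 ± 0.08, adjusted p = 0.0425), its group means lying between 129 ± 8.41 and 163 ± 6.58 CPM. The CMC calls of Edem1 and Derl1 lay close to the threshold. Both were lost without any of Ad-CTRL CMC replicates 1, 2 and 3, Ad-CTRL Pema replicates 3 and 4, Ad-FAT10 CMC replicates 3 and 4 or Ad-FAT10 Pema replicate 2, and Edem1's also without Ad-CTRL Pema replicate 2 or Ad-FAT10 Pema replicate 4. The adjusted p then reached 0.157 for Edem1 and 0.12 for Derl1. Sel1l, the partner of the ligase HRD1, was lower with Ad-FAT10 under pemafibrate (162 ± 26.0 against 119 ± 11.3 CPM, -0.45 ± 0.13, adjusted p = 0.0108).

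Derl3, a derlin of secretory cells, was called higher with Ad-FAT10 under pemafibrate (1.66 ± 0.63, adjusted p = 0.0405), but the value rests on 1 liver. Ad-FAT10 Pema replicate 1 had 25.0 CPM, while the other 3 livers of that group had 2.82 to 3.66 CPM and the Ad-CTRL Pema livers 1.97 to 4.19 CPM. Without that liver the change was 0.26 (adjusted p = 0.624). The call was also lost without Ad-CTRL Pema replicate 1 (adjusted p 0.0979), 2 (0.0822) or 3 (0.0876).

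Syvn1 encodes HRD1, the ubiquitin ligase at the centre of ERAD, and carries an ERSE close to its start. It was at 53.4, 52.3, 45.7 and 61.5 CPM in Ad-CTRL CMC and 45.5, 74.4, 68.3 and 52.4 CPM in Ad-CTRL Pema livers. It was at 61.5, 61.8, 64.4 and 71.7 CPM in Ad-FAT10 CMC livers and at 59.7, 56.3, 56.8 and 55.8 CPM in Ad-FAT10 Pema livers. The Ad-FAT10 CMC livers lay above the Ad-FAT10 Pema livers, but no change was called, the largest being 0.29 ± 0.13 with Ad-FAT10 under CMC (adjusted p = 0.0773).

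Of the 4 sensor and transducer genes, pemafibrate was followed by 2 falls in Ad-CTRL livers (median -0.46) and 3 in Ad-FAT10 livers (median -0.51), with no rise. Ad-FAT10 was followed by 1 rise and 1 fall under CMC and by 1 fall under pemafibrate. Of all genes, 14.4% and 12.5% fell with pemafibrate in the same order, and with Ad-FAT10 22.5% rose and 20.2% fell under CMC and 20.5% fell under pemafibrate. With 4 genes the counts are small.

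Xbp1 encodes the transcription factor that IRE1α activates by splicing, and it is also needed for secretory capacity in unstressed cells. Its gene count does not separate the spliced from the unspliced form. It was at 423, 313, 282 and 262 CPM in Ad-CTRL CMC livers and at 213, 218, 140.5 and 171 CPM in Ad-CTRL Pema livers. In Ad-FAT10 CMC livers it was at 232, 222, 205 and 185 CPM and in Ad-FAT10 Pema livers at 162, 137, 137 and 114 CPM. Within each adenovirus every vehicle liver lay above every pemafibrate liver, and the Ad-CTRL CMC livers lay above all others. Xbp1 fell with pemafibrate in Ad-CTRL livers (-0.79 ± 0.16, adjusted p = 0.000946) and in Ad-FAT10 livers (-0.62 ± 0.16, adjusted p = 0.00742). It was lower with Ad-FAT10 under CMC (-0.60 ± 0.16, adjusted p = 0.00563) and under pemafibrate (-0.43 ± 0.16, adjusted p = 0.0361). The last call was lost without any of Ad-CTRL Pema replicates 1 and 2 or Ad-FAT10 Pema replicates 2, 3 and 4 (adjusted p up to 0.113).

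Ern1, the gene for IRE1α, had the smallest pemafibrate p of the 37 genes in both adenoviruses. It was at 54.7, 56.0, 59.0 and 61.3 CPM with Ad-CTRL CMC and at 32.9, 37.3, 39.7 and 36.5 CPM with Ad-CTRL Pema. With Ad-FAT10 CMC it was at 62.6, 52.6, 48.5 and 50.3 CPM and with Ad-FAT10 Pema at 31.7, 33.6, 35.0 and 28.3 CPM. All 8 pemafibrate livers lay below all 8 vehicle livers. It fell to 0.634 of the vehicle level in Ad-CTRL livers (-0.66 ± 0.09, adjusted p = 3.21e-05) and to 0.602 in Ad-FAT10 livers (-0.73 ± 0.09, adjusted p = 1.54e-05). The Ad-FAT10 changes, -0.11 ± 0.09 and -0.19 ± 0.09, were not called.

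Eif2ak3, the gene for PERK, rose with Ad-FAT10 under CMC, from 14.1 ± 0.701 to 19.1 ± 0.907 CPM (0.44 ± 0.12, adjusted p = 0.00545), and fell with pemafibrate in Ad-FAT10 livers to 14.5 ± 2.80 CPM (-0.40 ± 0.11, adjusted p = 0.015). That fall was not called without Ad-FAT10 CMC replicate 2 (adjusted p = 0.0559). Atf6, whose product is cleaved in the Golgi, stayed between 83.5 ± 5.72 and 93.5 ± 5.24 CPM in the group means and was called in none of the comparisons, its changes running from -0.16 to 0.16.

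**Figure D3:**
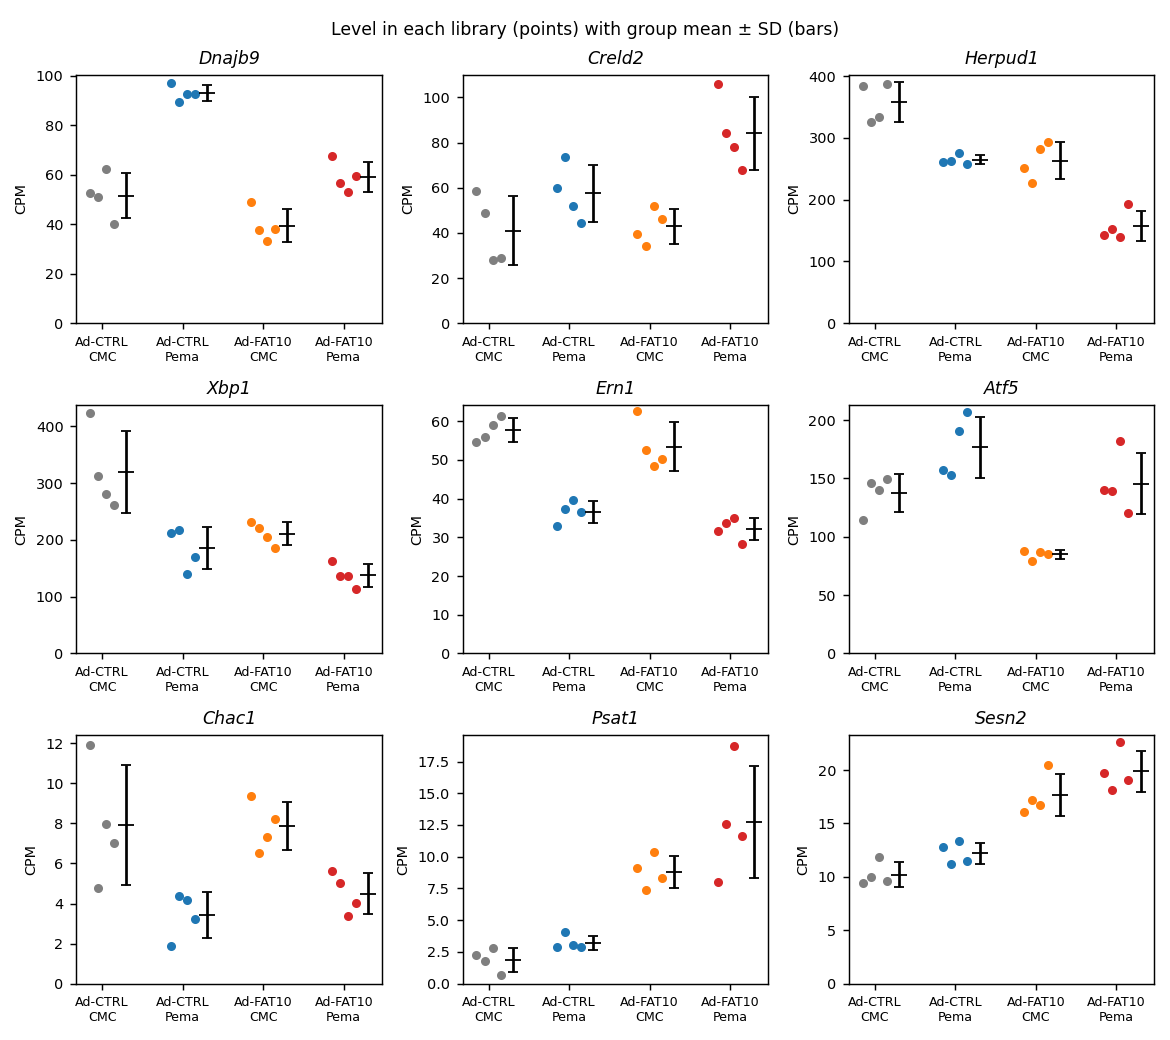
CPM of 9 genes in each liver (points) by group (4 mice each, horizontal axis), with group mean ± SD as bars and error lines. Ern1 and Xbp1 are lower in the pemafibrate livers of both adenoviruses, Dnajb9 and Atf5 are higher there, and Psat1 and Sesn2 are higher in the Ad-FAT10 livers.

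Of the 15 calls in the ATF4 arm, 11 were between adenoviruses. Among all genes, calls were also more frequent between adenoviruses, at 42.6% under CMC and 41.7% under pemafibrate. With the drug the shares of all genes were 30.6% (Ad-CTRL) and 25.4% (Ad-FAT10). The ATF4 arm had 45.5% and 54.5% of its genes called between adenoviruses and 18.2% with the drug in each adenovirus. With Ad-FAT10, 4 of its 11 genes rose and 1 fell under CMC, and 5 rose and 1 fell under pemafibrate. Of all genes, 22.5% rose and 20.2% fell under CMC and 21.2% and 20.5% under pemafibrate. With pemafibrate, 1 rose and 1 fell in each adenovirus, where 16.2% and 14.4% (Ad-CTRL) and 12.9% and 12.5% (Ad-FAT10) of all genes did. The median changes were 0.10 and 0.17 with pemafibrate and -0.00 and 0.39 with Ad-FAT10, so under CMC the median stayed near 0 although 4 genes rose. Without Ad-CTRL CMC replicate 1 that median was 0.26.

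Atf4 encodes the factor that gives the arm its name, and its activity is set mainly by translation. Its mRNA was at 117, 98.7, 114 and 116 CPM in Ad-CTRL CMC livers and at 124, 112, 118 and 123 CPM in Ad-CTRL Pema livers. In Ad-FAT10 CMC livers it was at 85.9, 104, 113 and 106 CPM and in Ad-FAT10 Pema livers at 104, 98.3, 109 and 115 CPM. The groups overlapped, and no change was called, the 4 running from -0.16 ± 0.09 (adjusted p = 0.158) to 0.10 ± 0.09 (adjusted p = 0.463).

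Ddit3 encodes CHOP, the factor tied to cell death in prolonged ER stress. It was at 3.75, 3.00, 3.42 and 4.53 CPM in Ad-CTRL CMC and 3.32, 4.01, 3.64 and 3.04 CPM in Ad-CTRL Pema livers. In Ad-FAT10 CMC livers it was at 1.70, 3.63, 3.11 and 4.70 CPM and in Ad-FAT10 Pema livers at 3.86, 3.85, 4.63 and 3.68 CPM. All 16 livers lay within 1.70 to 4.70 CPM, the groups overlapped, and no change was called (from -0.15 to 0.28).

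Trib3 encodes a pseudokinase that CHOP and ATF4 induce. It was at 7.27, 11.9, 8.97 and 9.05 CPM with Ad-CTRL CMC and 8.09, 6.84, 8.53 and 7.80 CPM with Ad-CTRL Pema. It was at 6.60, 7.76, 8.85 and 10.1 CPM with Ad-FAT10 CMC and 9.92, 10.3, 10.98 and 9.82 CPM with Ad-FAT10 Pema. Under pemafibrate every Ad-FAT10 liver was above every Ad-CTRL liver, and Trib3 was higher there by 0.39 ± 0.14 (adjusted p = 0.0369). The call was lost without any of Ad-CTRL Pema replicates 1, 2 and 4 or Ad-FAT10 Pema replicates 2, 3 and 4 (adjusted p up to 0.102). Asns, asparagine synthetase, was at 9.80, 3.603, 7.16 and 8.74 CPM in Ad-CTRL CMC and 3.06, 7.91, 3.59 and 3.66 CPM in Ad-CTRL Pema livers. It was at 6.70, 25.9, 8.20 and 3.64 CPM in Ad-FAT10 CMC and 4.21, 6.98, 10.6 and 9.92 CPM in Ad-FAT10 Pema livers. Single livers spanned several-fold within groups, and no change of Asns was called, the largest being 0.81 ± 0.49.

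Psat1 and Phgdh, both of serine synthesis, rose with Ad-FAT10 in both treatments. Psat1 encodes phosphoserine aminotransferase, the step after Phgdh in making serine. It was at 2.23, 1.76, 2.82 and 0.669 CPM in Ad-CTRL CMC and 2.90, 4.06, 3.04 and 2.91 CPM in Ad-CTRL Pema livers. It was at 9.13, 7.34, 10.4 and 8.34 CPM in Ad-FAT10 CMC and 8.03, 12.6, 18.7 and 11.6 CPM in Ad-FAT10 Pema livers. The 8 Ad-FAT10 livers all lay above the 8 Ad-CTRL livers, and Psat1 rose 4.68-fold under CMC (2.23 ± 0.30, adjusted p = 1.95e-05) and 3.96-fold under pemafibrate (1.98 ± 0.28, adjusted p = 3.36e-05).

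Phgdh, phosphoglycerate dehydrogenase, was at a low level, 0.880, 0.785, 0.971 and 0.412 CPM with Ad-CTRL CMC and 0.778, 0.695, 0.549 and 0.485 CPM with Ad-CTRL Pema. It was at 1.33, 1.57, 2.85 and 2.40 CPM with Ad-FAT10 CMC and 1.66, 2.36, 3.32 and 2.31 CPM with Ad-FAT10 Pema. No Ad-CTRL liver reached the lowest Ad-FAT10 liver. It rose by 1.42 ± 0.30 under CMC (adjusted p = 0.00121) and by 1.95 ± 0.31 under pemafibrate (adjusted p = 9.63e-05).

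Sesn2 encodes sestrin 2, a leucine sensor that restrains mTORC1 and is also a known p53 target. It was at 9.39, 9.98, 11.9 and 9.62 CPM in Ad-CTRL CMC and 12.8, 11.2, 13.3 and 11.5 CPM in Ad-CTRL Pema livers. It was at 16.1, 17.2, 16.8 and 20.5 CPM in Ad-FAT10 CMC and 19.8, 18.2, 22.6 and 19.0 CPM in Ad-FAT10 Pema livers, again with all 8 above all 8 Ad-CTRL livers. Sesn2 rose by 0.79 ± 0.11 under CMC (adjusted p = 2.6e-05) and by 0.71 ± 0.11 under pemafibrate (adjusted p = 6.81e-05).

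Atf3 encodes a stress-induced repressor that p53, inflammatory signals and ATF4 all induce. It was at 5.40, 4.02, 6.24 and 3.55 CPM with Ad-CTRL CMC and 7.83, 9.03, 7.98 and 6.87 CPM with Ad-CTRL Pema. It was at 14.7, 12.7, 20.1 and 17.3 CPM with Ad-FAT10 CMC and 11.8, 9.73, 31.6 and 12.5 CPM with Ad-FAT10 Pema. All 8 Ad-FAT10 livers were above all 8 Ad-CTRL livers, with Ad-FAT10 Pema replicate 3 far above the rest of its group. It rose 3.38-fold under CMC (1.76 ± 0.30, adjusted p = 0.000223) and 2.08-fold under pemafibrate (1.06 ± 0.29, adjusted p = 0.00741). Without that liver the change under pemafibrate was 0.52 and still called (adjusted p = 0.0311). The change with pemafibrate in Ad-FAT10 livers was 0.02 ± 0.28, and without the same liver it was -0.52 (adjusted p = 0.0384).

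Atf5 rose with pemafibrate in both adenoviruses and fell with Ad-FAT10 under CMC. It encodes a relative of ATF4 that is abundant in liver and known for the mitochondrial stress response. It was at 114, 146, 139.8 and 149 CPM in Ad-CTRL CMC and 157, 153, 190.4 and 207 CPM in Ad-CTRL Pema livers. It was at 88.1, 79.6, 87.3 and 85.5 CPM in Ad-FAT10 CMC and 140.3, 139, 182 and 120.3 CPM in Ad-FAT10 Pema livers. The Ad-FAT10 CMC livers lay below the other 12. An exon of Atf5 overlaps exons of Nup62 and Il4i1 on the opposite strand, and whether the counting used strand is not given in the sources used here. Atf5 rose with pemafibrate in Ad-FAT10 (0.77 ± 0.13, adjusted p = 0.000206) and in Ad-CTRL livers (0.36 ± 0.13, adjusted p = 0.0357), and fell with Ad-FAT10 under CMC (-0.69 ± 0.13, adjusted p = 0.000365). The Ad-CTRL call was lost without any of Ad-CTRL CMC replicates 1 and 3, Ad-CTRL Pema replicates 3 and 4 or Ad-FAT10 CMC replicate 2 (adjusted p up to 0.131).

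Chac1 encodes an enzyme that degrades glutathione and is one of the most inducible ATF4 targets. It was at 11.9, 4.76, 7.95 and 7.00 CPM in Ad-CTRL CMC and 1.87, 4.38, 4.19 and 3.22 CPM in Ad-CTRL Pema livers. It was at 9.36, 6.54, 7.33 and 8.24 CPM in Ad-FAT10 CMC and 5.60, 5.03, 3.35 and 4.00 CPM in Ad-FAT10 Pema livers. Within each adenovirus every pemafibrate liver was below every vehicle liver. It fell with pemafibrate in Ad-CTRL livers (-1.20 ± 0.27, adjusted p = 0.00212) and in Ad-FAT10 livers (-0.81 ± 0.25, adjusted p = 0.0245). The second call was lost without Ad-FAT10 CMC replicate 1 (adjusted p 0.0729) or Ad-FAT10 Pema replicates 3 (0.0661) or 4 (0.0668). Ppp1r15a, which encodes GADD34, the regulator that brings a phosphatase to eIF2α, was lower with Ad-FAT10 under pemafibrate (19.3 ± 1.22 against 15.1 ± 2.27 CPM, -0.35 ± 0.11, adjusted p = 0.0155). Its call was lost without Ad-CTRL Pema replicate 3 (adjusted p 0.0517) or Ad-FAT10 Pema replicate 2 (0.0516).

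The question of how the pemafibrate response differed between the adenoviruses was addressed by the interaction, for which 0.0271% of all genes were called higher and 0.129% lower (0.156% in all, 23 of 14770). None of the 37 was called by edgeR's quasi-likelihood test or by DESeq2, and 3 (Trib3, Manf and Atf5) had an unadjusted edgeR p under 0.05. At that threshold about 1 gene in 20 passes by chance, and the share of all genes that passed was not counted. Trib3 came closest, with a difference of 0.55 ± 0.20 between the responses (adjusted p = 0.338), followed by Manf (0.79 ± 0.34, adjusted p = 0.413), Atf5 (0.41 ± 0.18, adjusted p = 0.421) and Syvn1 (-0.36 ± 0.18, adjusted p = 0.477). So the pemafibrate calls made only in Ad-CTRL (Sdf2l1, Pdia6) or only in Ad-FAT10 livers (Creld2, Pdia4, Edem1, Eif2ak3) are not shown to differ between adenoviruses. The median interaction was 0.28 for the chaperones, -0.16 for ERAD, -0.11 for the sensors and 0.20 for the ATF4 arm, against -0.01 for all genes. Each moved by over 1.5 times with 1 liver left out: to 0.13 for the chaperones (without Ad-FAT10 Pema replicate 1), -0.08 for ERAD (without Ad-FAT10 CMC replicate 2), -0.05 for the sensors (without Ad-FAT10 CMC replicate 1) and 7e-04 for the ATF4 arm (without Ad-FAT10 CMC replicate 4). Without Ad-FAT10 Pema replicate 3, Atf3 was called (-1.24, adjusted p = 0.0493).

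Set beside each other, the arms separated the groups in different ways. The mean log2 CPM over the 15 chaperones was 7.24 ± 0.22 (SD, n = 4) with Ad-CTRL CMC, 7.14 ± 0.13 with Ad-CTRL Pema, 7.21 ± 0.09 with Ad-FAT10 CMC and 7.37 ± 0.27 with Ad-FAT10 Pema, with overlap between all groups. Over the 11 ATF4-arm genes it was 3.18 ± 0.17, 3.19 ± 0.12, 3.64 ± 0.14 and 3.76 ± 0.22 in the same order. The lowest Ad-FAT10 liver (3.44) lay above the highest Ad-CTRL liver (3.34). That mean rests on part of the arm: under CMC 5 of the 11 genes were fitted above 0 with Ad-FAT10, by 2.23 for Psat1, 1.76 for Atf3, 1.42 for Phgdh, 0.79 for Sesn2 and 0.61 for Asns, the last not called. Atf4 (-0.13), Ddit3 (-0.15), Trib3 (-0.16), Ppp1r15a (-0.25) and Atf5 (-0.69, the only one called) were fitted below 0, and Chac1 was at -0.00. The sensor genes separated the treatments: 6.09 ± 0.06 and 6.07 ± 0.10 with CMC against 5.68 ± 0.06 and 5.58 ± 0.08 with pemafibrate, without overlap. For ERAD the means were 6.58 ± 0.12 and 6.44 ± 0.12 with CMC and 6.24 ± 0.06 and 6.09 ± 0.24 with pemafibrate.

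The difference between the chaperone and the ATF4-arm means was 3.80 to 4.37 log2 units in the Ad-CTRL CMC livers, 3.86 to 4.07 in the Ad-CTRL Pema livers and 3.42 to 3.79 in the Ad-FAT10 CMC livers, which lay just below the Ad-CTRL livers. In the Ad-FAT10 Pema livers it spread from 3.15 to 4.17. In that group replicate 1 had the highest chaperone mean of the 16 livers (7.73) and the lowest ATF4-arm mean of its group (3.57), while replicate 3 had the highest ATF4-arm mean (4.08) with a chaperone mean of 7.23. These means are descriptions with no test, and a mean over genes is compared between livers only.

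**Figure D4:**
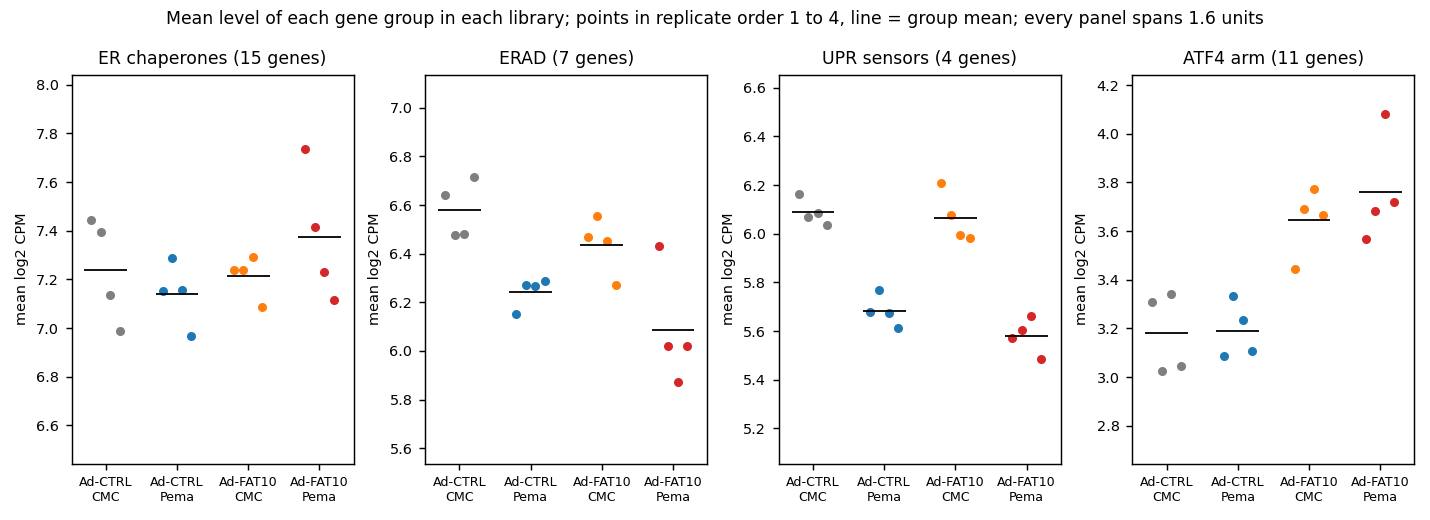
Mean log2 CPM of the genes of each arm in each liver (points, 4 mice per group in the order of the replicate number, group mean as a line), with the same span of 1.6 log2 units in every panel. The ATF4-arm mean is higher in all 8 Ad-FAT10 livers although 5 of its 11 genes were fitted above 0 under CMC, the sensor mean is lower in all 8 pemafibrate livers, and the chaperone means overlap between all groups.

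Other genes of these pathways were counted from 7 further lists, beside the shares of all genes called in the same comparisons: with pemafibrate 16.2% higher and 14.4% lower in Ad-CTRL and 12.9% and 12.5% in Ad-FAT10 livers, and with Ad-FAT10 22.5% and 20.2% under CMC and 21.2% and 20.5% under pemafibrate. Of 20 tested other ATF4 targets, 10 rose and 1 fell with Ad-FAT10 under CMC, and 10 rose and 3 fell under pemafibrate. The largest included Slc7a11, the cystine importer (3.93 ± 0.49 and 4.34 ± 0.51, adjusted p = 1.09e-05 and 7.6e-06), and Mthfd2, a mitochondrial folate enzyme (1.58 ± 0.22 and 1.57 ± 0.22, adjusted p = 2.7e-05 and 2.89e-05). Gdf15, a stress hormone that p53 also induces, rose by 2.79 ± 0.33 under CMC (adjusted p = 5.95e-06). With pemafibrate 3 of these 20 rose and 4 fell in Ad-CTRL livers, and 3 rose and 3 fell in Ad-FAT10 livers, among the rises Vldlr, a lipoprotein receptor that is also a PPARα target (2.10 ± 0.40 and 3.44 ± 0.40, adjusted p = 0.00053 and 5.18e-06).

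The aminoacyl-tRNA synthetases, which load amino acids onto tRNAs and are a further set of ATF4 targets, had rises and no fall in each of the 4 comparisons. Of 18, 11 rose with Ad-FAT10 under CMC and 9 under pemafibrate, and with the drug 6 rose in Ad-CTRL livers and 7 in Ad-FAT10 livers. The shares of all genes that rose were 22.5%, 21.2%, 16.2% and 12.9% in that order. Wars1 rose by 1.18 ± 0.16 (adjusted p = 1.88e-05) and Vars1 by 1.17 ± 0.14 (adjusted p = 1.01e-05) with Ad-FAT10 under CMC, and Wars1 is also known as an interferon-induced gene. Lars1 rose in all 4 comparisons, by 0.55 and 0.59 with pemafibrate and by 0.70 and 0.74 with Ad-FAT10. The median changes of the list were 0.18 and 0.19 with pemafibrate and 0.32 and 0.26 with Ad-FAT10.

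A list of 14 genes held eIF2 kinases, subunits of eIF2, of eIF2B and of the eIF2 phosphatase, and Nck1 and Impact. Among them Eif2ak2 (PKR, the kinase that senses double-stranded RNA) rose with Ad-FAT10 (0.54 ± 0.12 and 0.57 ± 0.12, adjusted p = 0.00135 and 0.000804). Ppp1r15b, the constitutive counterpart of GADD34, rose with pemafibrate in Ad-CTRL livers (0.62 ± 0.11, adjusted p = 0.000209) and was lower with Ad-FAT10 under pemafibrate (-0.81 ± 0.11, adjusted p = 1.81e-05). The list had 4 rises and 0 falls with pemafibrate in Ad-CTRL livers, 2 and 0 in Ad-FAT10 livers, and 3 and 2 and 3 and 3 with Ad-FAT10 under CMC and pemafibrate. Rises of all genes were 16.2%, 12.9%, 22.5% and 21.2%, and falls 14.4%, 12.5%, 20.2% and 20.5%.

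Of 24 other ER folding and glycosylation genes, 1 rose and 11 fell with pemafibrate in Ad-CTRL livers, 1 rose and 7 fell in Ad-FAT10 livers, 4 rose and 6 fell with Ad-FAT10 under CMC, and 7 rose and 3 fell under pemafibrate. In the same order 16.2%, 12.9%, 22.5% and 21.2% of all genes rose and 14.4%, 12.5%, 20.2% and 20.5% fell, which also holds for the next lists. The single rise with pemafibrate was Stt3b, an oligosaccharyltransferase subunit (0.53 ± 0.08, adjusted p = 3.62e-05 in Ad-CTRL livers), and the falls included Ppib, an ER cyclophilin (-0.68 ± 0.13, adjusted p = 0.000418). Of 22 translocation and transport genes, 1, 0, 2 and 3 rose and 4, 2, 6 and 5 fell in the order of the comparisons above. Of 17 other ERAD genes, 6 rose and 3 fell with pemafibrate in Ad-CTRL livers, 3 rose and 4 fell in Ad-FAT10 livers, and with Ad-FAT10 1 rose and 5 fell under CMC and 0 rose and 7 fell under pemafibrate. The rises with pemafibrate included Vcp, the extraction ATPase, and the cofactors Nploc4 and Ufd1 (0.64, 0.54 and 0.30 in Ad-CTRL livers). The glycan-trimming gene Edem2 fell there (-0.75 ± 0.09, adjusted p = 6.65e-06).

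Among 11 tested other transducers, 3 rose and 1 fell with pemafibrate in Ad-CTRL livers, 1 rose and 2 fell in Ad-FAT10 livers, and with Ad-FAT10 6 rose and 1 fell under CMC and 4 rose and 1 fell under pemafibrate. Creb3l3, the liver ER-bound factor CREBH and a known PPARα target, rose with pemafibrate (0.70 ± 0.10 and 0.77 ± 0.10, adjusted p = 5e-05 and 3.04e-05), and Creb3l2 fell (-0.94 ± 0.18 and -1.14 ± 0.17, adjusted p = 0.000538 and 9.92e-05). Bax, a pore-forming protein of the mitochondrial death pathway and a p53 target, rose with Ad-FAT10 (0.68 ± 0.14 and 1.21 ± 0.14, adjusted p = 0.00112 and 8.96e-06). No gene of the 7 lists was called for the interaction.

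**Figure D5:**
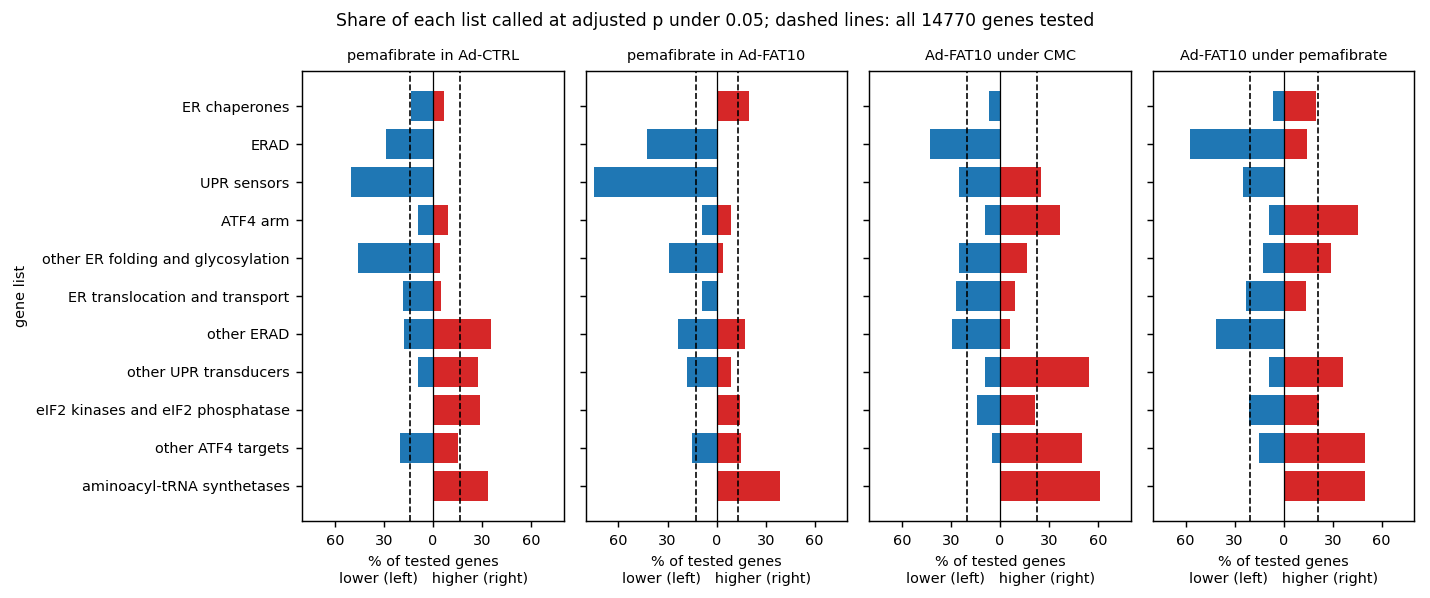
Share of the tested genes of each list that were called higher (right) and lower (left) at an edgeR adjusted p under 0.05 in the 4 comparisons (panels), with dashed lines for all 14770 genes tested. Aminoacyl-tRNA synthetases have bars on the right side only in each panel, and the sensors have bars on the left only in both pemafibrate panels.

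Markers of other cell types moved with the adenovirus beside the ATF4-arm rises. Of all genes, 22.5% rose and 20.2% fell with Ad-FAT10 under CMC, and 21.2% and 20.5% under pemafibrate. Summed over 10 neutrophil markers, levels were 8.27 to 16.7 CPM in Ad-CTRL CMC, 6.58 to 10.3 in Ad-CTRL Pema, 38.6 to 126 in Ad-FAT10 CMC and 17.9 to 27.1 CPM in Ad-FAT10 Pema livers, and of the 7 that could be tested all 7 rose with Ad-FAT10 under CMC and 5 under pemafibrate. The same 7 fell with pemafibrate in Ad-FAT10 livers, where 12.5% of all genes fell. In Ad-CTRL livers 0 of the 7 markers were called with pemafibrate, with a median change of -0.36 (all genes -0.01). T and NK cell markers summed to 17.4 to 35.2 and 16.6 to 26.8 CPM in the Ad-CTRL groups and 48.4 to 63.1 and 37.2 to 81.2 CPM in the Ad-FAT10 groups, with 8 of 10 higher in both comparisons. Of 10 macrophage markers 5 rose and 4 fell with Ad-FAT10 in each treatment, with sums of 352 to 500, 263 to 449, 428 to 602 and 289 to 584 CPM. Of 8 endothelial markers 5 fell with Ad-FAT10 in each treatment, with sums of 212 to 293 and 215 to 333 CPM in the Ad-CTRL groups and 143 to 193 and 143 to 222 CPM in the Ad-FAT10 groups. Of 8 stellate and fibroblast markers 3 fell under CMC, and 3 rose and 2 fell under pemafibrate, and of 5 tested cholangiocyte markers 2 rose under CMC.

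Hepatocyte markers moved with both factors, beside the falls of Xbp1 and Herpud1. Their sum of 10 genes was 92300 to 121000 CPM with Ad-CTRL CMC, 73500 to 104000 with Ad-CTRL Pema, 63400 to 78800 with Ad-FAT10 CMC and 45400 to 66000 CPM with Ad-FAT10 Pema, so the defining markers of liver were present in all 16 libraries, and 6, 7, 6 and 7 of the 10 fell in the 4 comparisons. Plasma cells, which express much Xbp1 and Derl3, were checked by 10 plasma and B cell markers, of which 4 fell with Ad-FAT10 under CMC and 3 under pemafibrate. Their sum was 187 to 240 and 345 to 409 CPM in the Ad-CTRL groups and 184 to 254 and 272 to 379 CPM in the Ad-FAT10 groups, and most of it was Sdc1, which hepatocytes also express (198, 347, 197 and 293 CPM). Their defining genes Tnfrsf17 and Mzb1 had 0 to 1 and 0 to 5 counts in a library and were not tested. The part of these cell shares in the changes of the 37 genes was not tested. The labels give no RNA quality and no batch for each liver, so no within-batch value can be given.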

How the data were processed

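RNA from 16 livers was poly(A)-selected, marked for strand with dUTP and sequenced on DNBSEQ, per the labels' protocols. The authors deposited 1 file per mouse of raw counts for 55416 Ensembl genes. Per the submitters' processing notes the build was GRCm39, and the tools included DESeq2 (2.11.40.6 and 1.36.0) and STAR (2.7.6). Which program counted the reads, with which annotation and strand setting, is not given in the sources used here.

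Symbols came from a GENCODE M21 annotation of another build and matched 52083 identifiers. In it, 12 of the 37 genes have an exon that overlaps an exon of another gene, 11 of them on the opposite strand, and Calr and Phgdh have a pseudogene, so their counts carry that uncertainty. Promoter windows are RefSeq's for GRCm38.p6.

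Counts were analysed with edgeR 4.0.16 in R 4.3.3: filterByExpr by group (14770 genes), TMM scaling, and a quasi-likelihood fit with 1 mean per group over all 16 libraries (12 residual degrees of freedom, biological coefficient of variation 0.151). Contrasts were pemafibrate in each adenovirus, Ad-FAT10 in each treatment, and their interaction, adjusted by Benjamini-Hochberg over all genes. The SE is the absolute change divided by the square root of F. Log2 CPM for means and plots used a prior count of 2. The fit was also run on counts simulated with known changes. These were drawn with the fit's own dispersions, so they do not check its assumptions. The labels describe separate mice, so p-values are over mice. Library totals ran from 18663498 to 28898229.

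The genes, the pathway lists and the marker lists were chosen with earlier results of these data known, so no list was tested. Values in each library are printed for Hspa5, Xbp1, Atf4, Ddit3, Trib3 and Asns and for the 4 genes with the smallest p in each comparison. From other pathway lists, up to 4 genes with the smallest p in a comparison could be named. Alternatives were RLE size factors, no filter, DESeq2 1.42.0, only the groups compared, the replicate number as a block, and each library left out.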

Additional observations from a re-analysis of the deposited data

Results flagged for a closer look

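Of 168 sets of 4 livers (37 genes and the mean levels of the arms in each group), 9 held a liver far from the others by Dixon's test at its 95% critical value, where about 8.4 would be flagged by chance at 1 in 20. With Ad-FAT10 Pema, Derl3 was 25 CPM in replicate 1 (next highest 3.66 CPM), and replicate 3 had 31.6 CPM of Atf3 (next 12.5), 18.5 CPM of Ppp1r15a (next 14.4) and 75 CPM of Atf6 (next lowest 85.6). With Ad-FAT10 CMC, Hspa5 was 436 CPM in replicate 2 (next lowest 522). With Ad-CTRL Pema, replicate 2 had 7.91 CPM of Asns (next highest 3.66) and 4.06 CPM of Psat1 (next 3.04), and replicate 1 had a mean ERAD level of 6.15 log2 CPM (next lowest 6.27). With Ad-CTRL CMC, Ppp1r15a was 20.1 CPM in replicate 4 (next highest 17.1).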

How the results depend on the processing

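Of the 47 calls among the 37 genes, 32 held under every alternative and 15 were lost under at least 1, mostly when a liver was left out. RLE size factors and DESeq2 lost none of the 47, only the groups compared lost 5, no filter lost 3 and the replicate block lost 1. Without a filter on low counts, 5 genes rose with pemafibrate in Ad-CTRL livers in place of 2, and 14 with Ad-FAT10 under pemafibrate in place of 9. The cause was not tested. Same-numbered livers of different groups did not deviate together on average (mean r 0.004 over 24 pairs, 3 over 0.1). Livers with different numbers had a mean r of -0.001 (72 pairs, 7 over 0.1). The numbers thus gave no sign of pairing, but a mean near 0 cannot exclude a batch shared by some livers. With the replicate block, 4 genes rose with pemafibrate in Ad-CTRL livers, the median ERAD change with pemafibrate in Ad-FAT10 livers was -0.36 in place of -0.18, and the Derl3 call under pemafibrate was lost. With 1 liver left out, genes rising and falling with pemafibrate numbered 1 to 4 and 6 to 9 in Ad-CTRL and 4 to 5 and 5 to 9 in Ad-FAT10 livers, and with Ad-FAT10 5 to 6 and 3 to 7 under CMC and 6 to 13 and 5 to 8 under pemafibrate. Interaction calls numbered 0 higher and 0 to 1 lower. The ATF4-arm median ran from -0.15 to 0.26 with Ad-FAT10 under CMC and from 7e-04 to 0.38 for the interaction, and the ERAD median with pemafibrate in Ad-FAT10 livers from -0.40 to -0.17. The chaperone median ran from -0.25 to -0.07 with pemafibrate in Ad-CTRL livers, from 0.02 to 0.17 in Ad-FAT10 livers and from 0.13 to 0.36 for the interaction. The Atf3 change with pemafibrate in Ad-FAT10 livers, 0.02, ran from -0.52 (adjusted p = 0.0384, without Ad-FAT10 Pema replicate 3) to 0.20 (without its replicate 2). Of the 101 changes not called, 27 were called under at least 1 alternative, so a change that was not called may still exist.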
